A study of Mus musculus with 4 samples.

Results

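Open chromatin that was shared by all 4 ATAC-seq libraries of a mouse tumour study and that lay far from any protein-coding gene was described. Peaks of the 19 autosomes were merged where they overlapped by at least 1 bp, which gave 44742 regions, and 16657 of these were called in every library. A region was kept when the mean position of its 4 summits lay outside protein-coding genes and more than 50 kb from the nearest end of one, which left 910 regions, or 5.46% of those shared. Calls and position therefore chose the regions, and the other 6526 shared intergenic regions, within 50 kb of a gene end, served for comparison. Of these 6526, 3144 lay more than 1 kb from a gene end and the rest lay within 1 kb of one.

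The cells were myeloid-derived suppressor cells, an immature myeloid population that restrains T cells in tumours, sorted by flow cytometry as Gr1+CD11b+ cells from ascitic fluid. WT mice and Sphk2 KO mice, which lack sphingosine kinase 2, a kinase that makes sphingosine 1-phosphate, had received EL4 cells, a mouse T lymphoma line, and the fluid was collected after 14 days. There were 2 libraries of WT and 2 of Sphk2 KO, all from tumour-bearing mice and all made with a reduced amount of Tn5. The labels name them biological replicates without an animal, age or allele, so differences were judged only against the spread between libraries, which may be technical. The Gr1+CD11b+ gate takes in granulocytic and monocytic cells.

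ATAC-seq marks DNA that the Tn5 transposase can enter, chiefly promoters and enhancers, which are stretches bound by transcription factors in place of nucleosomes. Enhancers can lie far from the gene they act on, often in the long gaps that surround genes of transcription factors and signalling regulators, and several can form a cluster. Long gaps also hold genes of long non-coding RNAs (lncRNAs), whose promoters are open chromatin as well.

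Among the 910 regions, 57 held an annotated start site, always of an lncRNA gene. Sequence could be read in windows at these sites and not over whole regions. The 6 windows shown are a choice from 64, and each has a motif match, which not every window has. Each is the window from 250 bases before to 50 bases after the start of the transcript, from RefSeq (GRCm38.p6), 5′ to 3′ along the transcript. Capitals mark matches to short motifs of factors active in myeloid cells, searched on both strands: GAGGAAG for PU.1, the master regulator of myeloid genes, TGACTCA for AP-1, TTGCGCA or TTGCACA for C/EBP, TGTGGTT for Runx, AGTTTC for interferon response factors and AGGGGGC for CTCF. No match shown overlaps another. Morrbid, an lncRNA that restrains the neighbouring death gene Bcl2l11 in short-lived myeloid cells, has its window at chr2:128429302-128429601, Ptgs2os2, beside the prostaglandin synthase gene Ptgs2, at chr1:150164899-150165198, and Dleu2, a host of microRNAs, at chr14:61682324-61682623. Mirt1, near the phosphatase gene Dusp5, is at chr19:53464747-53465046, Dubr at chr16:50732724-50733023, and Lexis1, beside the cholesterol exporter gene Abca1, at chr4:53218312-53218611. All are on the minus strand.

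Morrbid: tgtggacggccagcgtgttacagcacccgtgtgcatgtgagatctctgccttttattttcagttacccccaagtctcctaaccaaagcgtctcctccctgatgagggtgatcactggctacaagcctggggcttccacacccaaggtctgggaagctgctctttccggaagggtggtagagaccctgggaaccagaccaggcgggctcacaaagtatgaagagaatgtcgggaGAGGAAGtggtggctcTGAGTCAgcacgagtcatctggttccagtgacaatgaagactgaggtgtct
Ptgs2os2: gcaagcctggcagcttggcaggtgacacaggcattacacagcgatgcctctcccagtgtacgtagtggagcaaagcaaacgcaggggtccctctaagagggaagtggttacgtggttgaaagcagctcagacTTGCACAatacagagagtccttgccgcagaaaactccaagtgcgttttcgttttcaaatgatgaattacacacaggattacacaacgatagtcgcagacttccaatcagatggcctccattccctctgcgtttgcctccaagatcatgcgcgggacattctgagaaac
Dleu2: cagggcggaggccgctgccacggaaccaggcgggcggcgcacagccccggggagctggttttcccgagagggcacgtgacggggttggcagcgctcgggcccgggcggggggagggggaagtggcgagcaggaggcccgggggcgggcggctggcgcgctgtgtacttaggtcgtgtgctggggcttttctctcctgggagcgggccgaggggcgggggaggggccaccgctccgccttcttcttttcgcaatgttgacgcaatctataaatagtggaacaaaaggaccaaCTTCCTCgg
Mirt1: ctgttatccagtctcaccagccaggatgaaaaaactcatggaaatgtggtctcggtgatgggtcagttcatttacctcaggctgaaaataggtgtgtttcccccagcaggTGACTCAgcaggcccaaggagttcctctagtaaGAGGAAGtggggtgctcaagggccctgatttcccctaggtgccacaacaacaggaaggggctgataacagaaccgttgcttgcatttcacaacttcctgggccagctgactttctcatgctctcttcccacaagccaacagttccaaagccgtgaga
Dubr: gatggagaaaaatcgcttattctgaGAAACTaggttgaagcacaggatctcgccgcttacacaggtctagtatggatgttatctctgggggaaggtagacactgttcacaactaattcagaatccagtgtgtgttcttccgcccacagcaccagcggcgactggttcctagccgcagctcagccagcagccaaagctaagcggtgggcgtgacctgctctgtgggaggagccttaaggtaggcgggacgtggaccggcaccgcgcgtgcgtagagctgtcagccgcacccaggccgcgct
Lexis1: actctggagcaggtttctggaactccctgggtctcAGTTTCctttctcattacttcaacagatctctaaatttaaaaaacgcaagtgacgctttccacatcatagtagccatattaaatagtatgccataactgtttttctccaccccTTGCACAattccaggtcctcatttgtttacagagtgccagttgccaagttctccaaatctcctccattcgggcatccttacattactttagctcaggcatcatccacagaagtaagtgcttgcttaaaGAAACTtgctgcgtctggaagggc

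The libraries held 25877428 to 34443062 retained fragments, fewer in both Sphk2 KO libraries, and 20412 to 31361 autosomal peaks, with the fewest in Sphk2 KO replicate 1. One peak lay over Sphk2 or within 1 kb of it in each WT library and 2 in each Sphk2 KO library, and the highest had a fold enrichment of 9.97 and 9.80 in WT against 5.002 and 5.91 in Sphk2 KO; a peak list does not show the deletion itself. Of 20 granulocytic marker genes, 12 and 13 had a peak within 1 kb of an end in WT against 13 and 14 in Sphk2 KO, and no library had one for Ly6g, Csf3r, Ngp, Elane and Mpo. Of 18 monocyte and macrophage markers, 12 and 13 did in WT against 8 and 10 in Sphk2 KO, and no library had one for Ccr2, C1qa, Mrc1, Ms4a7 and Vcan. The summed fold enrichment of these monocyte and macrophage markers was 66.4 to 70.0 in WT against 43.4 to 56.3 in Sphk2 KO. Of 19 T cell markers, 4 and 8 did in WT and 3 in each Sphk2 KO library (summed 26.3 to 40.8 against 23.1 to 23.3), with none anywhere for Cd3e, Cd3g, Cd8a or Lck. None of 8 B cell markers had one. These counts and sums were not adjusted for the number of peaks in a list, which was lower in both Sphk2 KO libraries.

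Regions far from genes were called less evenly across libraries than those nearer to them. Of 10820 merged far regions, 8.41% were called in all 4 libraries and 78.2% in only 1, whereas of 13305 merged intergenic regions within 50 kb 48.4% were called in all and 29.5% in 1. The nearer group includes regions within 1 kb of a gene end. The 910 regions are a small, repeatedly found share of the distant peaks. Here and below, 4 values in a row stand for WT replicate 1, WT replicate 2, Sphk2 KO replicate 1 and Sphk2 KO replicate 2. Far peaks made up 17.5%, 14.8%, 11.3% and 11.8% of the autosomal peaks. Both WT libraries stood above both Sphk2 KO libraries. The means were 16.2% ± 1.90 (SD, n = 2) and 11.5% ± 0.379 (SD, n = 2), a difference of -4.65 percentage points with a two-sided exact permutation p of 0.3333, the smallest that 2 libraries against 2 allow. With the same number of top peaks taken from each library, 20759, the difference turned to +2.46 percentage points (exact permutation p = 0.667), and with peaks of a −log10 q of 5 or more it was -0.721. Depth also differed between the genotypes in the same direction as the unadjusted share.

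The shared far regions were of modest strength. Their median width was 900.5 bp (quartiles 667 and 1170, range 213 to 2713), against 962 bp over all shared regions, 1037 bp within 1 kb of a gene end, 906 bp inside genes and 862.5 bp in intergenic regions at 1 to 50 kb. Strength is given as fold enrichment, the authors' ratio of fragment pileup at a peak over its local background, and as a percentile, the rank of a region's highest peak among the 16657 shared regions of its own library. Their fold enrichment had medians of 6.69, 6.60, 5.77 and 7.02. At gene ends these were 9.81, 9.29, 8.42 and 10.0. The far regions lay below the gene ends in every library, at a median percentile of 35.6, 36.1, 35.7 and 35.9. That was close to shared regions inside genes (36.6, 36.1, 38.2 and 37.7) and to intergenic regions at 1 to 50 kb (37.3, 38.8, 39.2 and 38.8).

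Strength fell with distance. The 446 regions at 50 to 100 kb had a median percentile of 37.3, 37.6, 36.7 and 38.6, and the 381 at 100 to 250 kb had 34.4, 36.5, 36.1 and 35.5. The 48 at 250 to 500 kb had 28.2, 33.8, 25.6 and 30.5. The 35 beyond 500 kb had 14.4, 17.5, 14.9 and 12.1, the lowest group in every library. Of the 910, 178 (19.6%) were in the upper part of the ranking, above percentile 50, in all 4 libraries, against 39.7% of all shared regions, and 7 were above percentile 90 in all 4. Summits of the 4 libraries spanned a median of 70 bp, against 59 bp over all shared regions. Inside genes and in intergenic regions at 1 to 50 kb the median was 65 bp. Of the 910, 841 had 1 peak in every library.

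**Figure D1:**
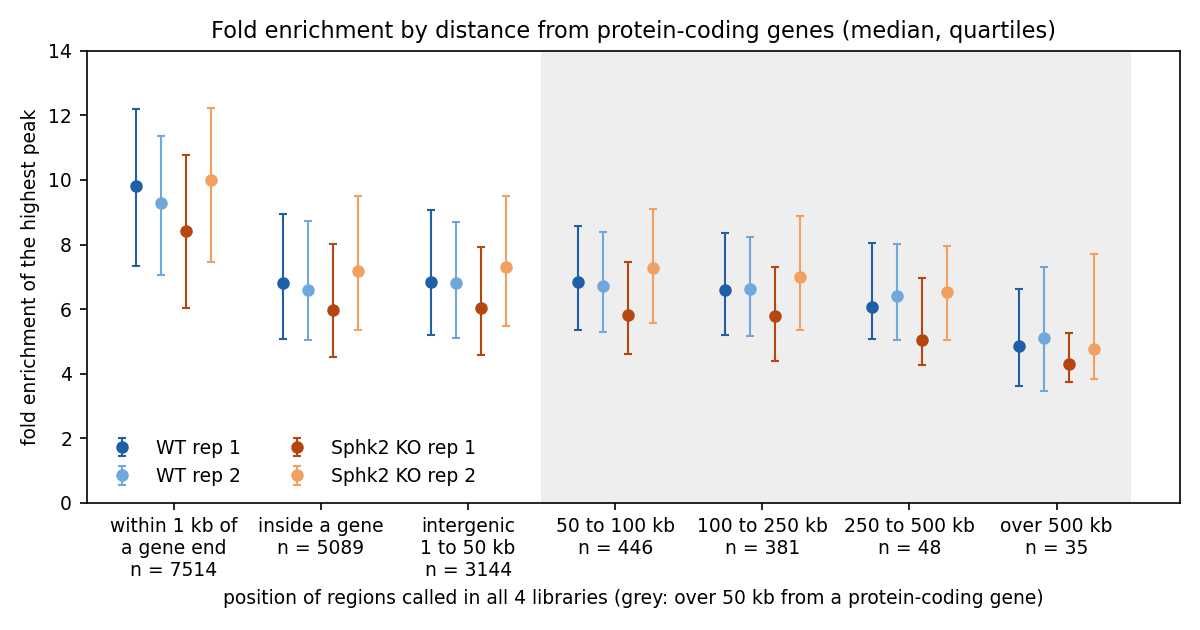
Median fold enrichment (points; bars, lower to upper quartile) of regions called in all 4 libraries, by position and library. In each library the medians are highest within 1 kb of a gene end (8.42 to 10.0) and lowest beyond 500 kb (4.29 to 5.10).

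A handful of regions stood apart at the top. Lrrc4c–Iftap at chr2:98666250-98667313, 1064 bp wide and 1035469 bp from the synaptic adhesion gene Lrrc4c, had the highest pileup of all shared regions in every library, 4344, 4735, 4074 and 4218. The median pileup of the far regions was 46, 54, 32.5 and 57. Its 4 summits lay on the same base, and its fold enrichment was 12.1, 11.3, 11.3 and 10.8, so the signal around it was high too. A second region of that gap, at chr2:98662250-98662873, had pileups of 1646, 1637, 1538 and 1513 at fold enrichments of only 4.59, 3.92, 4.29 and 3.86. Flrt2–Galc at chr12:97061432-97061792 had pileups of 1789, 1836, 1040 and 1597 in 361 bp, within the top 5 in every library.

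By fold enrichment the leader was LOC115489384–Rab10 at chr12:3109875-3110087, the narrowest of the 910 with 213 bp, at 31.1 and 28.2 in WT against 29.5 and 28.0 in Sphk2 KO. Gm15319–Gm40469 at chr8:20424182-20425250 (24.95, 23.1, 18.9 and 22.5) and 9530057J20Rik–Gm15319 at chr8:20122071-20122975 (20.6, 18.5, 17.5 and 19.1) followed with Flrt2–Galc (21.4, 19.0, 18.5 and 18.6). These 4 were above percentile 99 in every library and lie beside predicted genes or deep in a gap rather than beside a known myeloid gene. Lists of repeats or of places that draw excess reads were not used here, and the part of such sequence in these values was not tested. The next was of another kind: Rasgrp1–Thbs1 at chr2:117976765-117977608, inside the lncRNA entry Gm13986 and 134.669 kb from Thbs1, the gene of the matrix protein thrombospondin 1, at 15.6 and 15.3 in WT against 14.4 and 13.9 in Sphk2 KO. Samsn1–Nrip1 at chr16:75960795-75961795, 52.02 kb from Samsn1, an adaptor of haematopoietic cells, had 13.7, 13.2, 12.3 and 13.5.

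Distance ran to 1642236 bp with a median of 104498.5 bp, and 464 regions (51.0%) lay beyond 100 kb, 83 beyond 250 kb and 15 beyond 1 Mb. The farthest, Pabpc4l–Pcdh18 at chr3:48100981-48101514, had a fold enrichment of 5.71 and 4.71 in WT against 5.01 and 4.21 in Sphk2 KO. The second in that gap, at chr3:48080382-48081076, had 5.76, 9.54, 4.63 and 5.35, with WT replicate 2 alone high. The other 4 farthest, Cntnap5b–Cdh20 at 1411704 bp, Olfm4–Pcdh17 at 1355324 bp, Kcnt2–Cdc73 at 1353990 bp and Zeb2–Acvr2a at 1326137 bp, spanned 2.95 to 6.86 over all libraries. Most of these gaps are bounded by genes of neuronal adhesion or channel proteins; Zeb2, a transcription factor of monocyte and dendritic lineages, is the exception.

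The widest regions sat in other places. Akr1e1–Klf6 at chr13:5802190-5804902 was 2713 bp wide and 57.434 kb from Klf6, a zinc finger factor of activated macrophages, at a fold enrichment of 6.79 and 5.75 in WT against 5.83 and 5.91 in Sphk2 KO. Uchl5–Rgs2 (2623 bp), beside the G protein regulator gene Rgs2, had 7.60, 6.93, 7.38 and 6.81, Kcnc2–Atxn7l3b (2412 bp) 3.73, 5.40, 4.25 and 4.09, and Nudt4–Eea1 (2352 bp) 7.51, 7.34, 7.58 and 7.38. Kcnrg–Dleu7 (2318 bp) holds the Dleu2 start printed above and had 5.53, 5.35, 5.34 and 6.09, and Irf2bp2–Tomm20 (2316 bp) had 8.59, 6.90, 7.87 and 8.19. These 6 were broad but not among the strongest, with a lowest percentile of 4.79 to 39.9. At the distance limit, the nearest regions outside 50 kb were Hk2–Sema4f (50024 bp), Prune2–Gcnt1 (50030 bp) and Btg3–D16Ertd472e (50039 bp), with lowest percentiles of 7.95, 35.7 and 5.78, and the nearest inside it were Slitrk5–Gpc5 (49972 bp), Gm30733–Prex1 (49907 bp) and Arg1–Akap7 (49809 bp), with 12.6, 21.7 and 23.4. The values on both sides of the limit overlapped.

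The far regions were gathered in few gaps. Of 2495 gaps of more than 100 kb between neighbouring protein-coding genes, 340 (13.6%) held at least 1, 52 held 5 or more, and those 52 held 425 of the 910 (46.7%). Gaps with a region were longer than those without, at a median of 301 against 217 kb. The median distance to the nearest other far region was 15415 bp, and 656 (72.1%) had one within 50 kb. Members of a gap share one stretch of chromosome and are not independent of each other.

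The fullest gap, 337 kb between Irf2bp2, a corepressor gene that restrains inflammatory genes in macrophages, and Tomm20, held 22 regions, or 9.30 per 100 kb of the stretch more than 50 kb from both genes, against 0.105 over all gaps. Its strongest region, chr8:126683580-126684413, had a fold enrichment of 11.0 and 9.36 in WT against 10.4 and 14.1 in Sphk2 KO. The gap between Eea1 and Btg1, an antiproliferative gene of quiescent blood cells, held 21, with a highest of 10.1, 9.72, 9.06 and 9.57 at chr10:96273774-96274569. The gap beyond Trib1, a pseudokinase gene that controls C/EBP proteins in myeloid cells, held 19 and had the highest median of the lowest percentile, 50.9, among gaps of 10 or more. Its leading region, chr15:59759630-59760405, reached 13.2, 13.1, 11.9 and 13.3, above percentile 90 in every library.

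Next came Id2–Rnf144a with 15 regions, beside the gene of the helix-loop-helix inhibitor Id2, and Rasgrp1–Thbs1 with 12, all of them within 198 kb of Thbs1. The Cebpb–Ptpn1 gap, beside the C/EBP factor of emergency granulopoiesis, held 11 in 240 kb. Its strongest, chr2:167752921-167754816, was 1896 bp wide and had 10.4 and 9.14 in WT against 9.54 and 10.1 in Sphk2 KO. The Bcl2l11–Spdye4c gap, where Bcl2l11 codes for the death protein Bim, held 10, and its strongest, inside the Morrbid entry at chr2:128373420-128374591, had 10.9, 9.98, 10.1 and 9.78. Gaps beside Bcl6 and Zeb2, both transcriptional repressors, held 10 each. In 1 gap of 10 or more the regions were weak throughout: the 12 between Adam6a and Zfp386 lie inside the immunoglobulin heavy chain locus, Igh, and their lowest percentile ranged from 0.871 to 28.8, while no B cell marker had a peak.

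**Figure D2:**
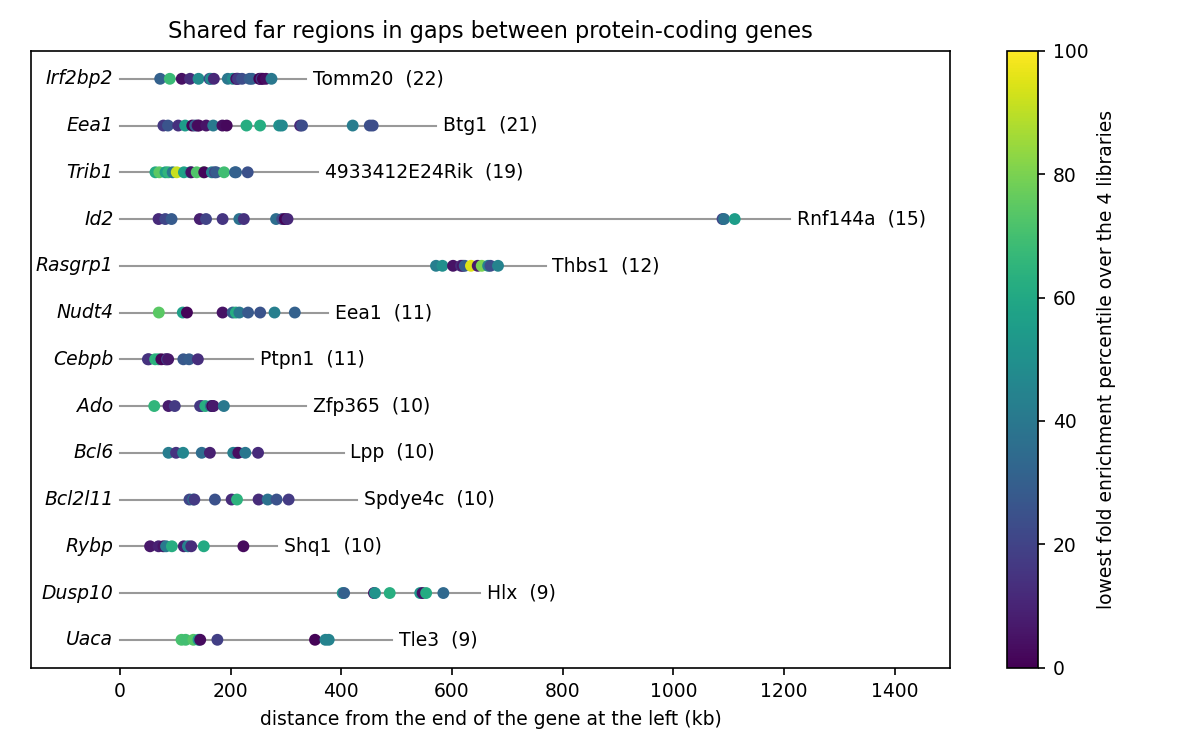
Shared far regions (points) in the gaps between protein-coding genes that held 9 or more of them and were shorter than 1300 kb, by distance in kb from the end of the gene at the left; colour is the lowest fold enrichment percentile over the 4 libraries and numbers in brackets count regions. Irf2bp2–Tomm20 holds 22 along its length, whereas the 12 of Rasgrp1–Thbs1 crowd towards Thbs1.

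The flanking genes were read against lists of genes grouped by role, lists that were drawn up with results of these data known. A gene of the myeloid transcription factor list flanked 96 far regions (10.5%), against 2.42% of the shared intergenic regions within 50 kb. Regions within 1 kb of a gene end are part of that comparison group, here and for the other lists. These came from 20 of 71 genes, with Id2 beside 15, Cebpb 11, Bcl6, Klf6 and Zeb2 10 each, Ets2 7 and Jun 6. Counted by gap, which leaves out the repeats, 21 of 58 gaps bounded by a listed factor held a far region (36.2%, against 13.6% of all gaps), at a median length of 339 kb. The signalling regulator list flanked 105 (11.5%, against 2.33%), from 24 of 59 genes, and 25 of its 44 gaps held one (56.8%) at a median length of 251 kb. Btg1 led with 22, then Ptpn1 with 11, Bcl2l11 with 10, and the MAP kinase phosphatase gene Dusp10 with 9. In all lists a region counts for the nearest gene on each side, at any distance. The 9 of Dusp10 lay 403 to 584 kb from it and nearer to Hlx, at 67.1 to 249 kb. Regions counted for Id2 lay up to 1111 kb away. The 11 beside Ptpn1 are the same regions as the 11 beside Cebpb, so the Cebpb–Ptpn1 gap counts in both lists.

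Other roles flanked fewer regions. Cytokines, chemokines and receptors flanked 19 regions (2.09%, against 2.15% nearer to genes), from 7 of 61 genes, of which Cxcr4, the receptor that holds neutrophils in bone marrow, had 7; counted by gap, 7 of 25 held a far region (28%). Genes of neutrophil granules, adhesion and effector functions flanked 25 (2.75%, against 1.26%), all from Thbs1 (12), Cd24a (7), Cd44, Itga4 and Ptgs2 (2 each). Counted by gap, 5 of 12 held one (41.7%). Sphingolipid and lipid genes flanked 11 (1.21%, against 0.904%), namely Abca1, Ppara, S1pr1 and Sptssa, and 4 of 15 gaps held one (26.7%). All 3 shares of gaps were above the 13.6% of all gaps, as was the 16.4% of the comparison list that follows. These counts are small, gap lengths were not matched and no difference was tested. The comparison list of genes silent in myeloid cells, neuronal and adhesion genes, flanked 17 (1.87%, against 0.0919%), at a median lowest percentile of 5.32, and 11 of its 67 gaps held one (16.4%), although their median length was 1369 kb.

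Several listed neighbours were ranked high in every library. Klf4–Actl7b at chr4:55622825-55624225, 91.098 kb from Klf4, a factor of monocyte differentiation, and inside the lncRNA entry Gm12506, had 12.4 and 11.97 in WT against 10.7 and 12.1 in Sphk2 KO. Wnt7b–Ppara at chr15:85634397-85635239, inside the lncRNA D130051D11Rik and 52.83 kb from Wnt7b, had 12.7, 11.9, 11.3 and 12.03. Csf1–Eps8l3 at chr3:107818501-107819789, 58.857 kb from Csf1, the macrophage growth factor gene, had 12.1, 11.3, 11.9 and 12.02. In all 3 the genotypes were within 2 units of each other.

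Cxcr4–Thsd7b held 2 of the highest, chr1:128704868-128706250 with 13.03, 10.8, 11.8 and 11.7, and chr1:128712144-128713521 with 12.1, 10.5, 11.0 and 10.9. Klf13–Gm45988 at chr7:64011445-64012376 had 11.5, 10.8, 11.7 and 12.6, and Cd24a–Qrsl1 at chr10:43667381-43668529, beside the gene of the surface protein CD24, had 11.5, 12.1, 10.4 and 13.4. The second Rasgrp1–Thbs1 region of this rank, chr2:117996015-117997197, had 13.2, 12.2, 11.4 and 11.5. Dusp6–Csl at chr10:99459486-99461791, beside the ERK phosphatase gene Dusp6, was 2306 bp wide and had 11.1, 11.5, 9.95 and 10.9, and Saraf–Dusp4 at chr8:34622382-34623196 had 10.9, 10.2, 9.32 and 13.2. All of these were above percentile 74 in every library.

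Non-coding genes were frequent around the far regions. The mean summit lay inside a non-coding or pseudogene entry in 308 (33.8%, 95% Wilson interval 30.8 to 37.0, for counting error only), against 14.6% of shared intergenic regions within 50 kb, and 282 of them lay in an lncRNA. Regions inside such an entry were no stronger than the rest, with a median fold enrichment of 6.59, 6.48, 5.77 and 7.09, against 6.72, 6.64, 5.77 and 6.97 outside. Besides Gm13986, Gm12506 and D130051D11Rik, the highest were inside Gm40932 between Dtnbp1 and Mylip (12.3, 12.4, 12.6 and 12.1), Gm4107 between Ccdc112 and Fem1c (12.9, 11.1, 12.1 and 14.1) and Gm32633 beside Klf13. These shares were not adjusted for the length of the lncRNA genes in each gap, and the comparison group includes regions within 1 kb of a gene end.

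Start sites were rarer than overlaps. The 57 regions with a start site (6.26%) held 64 sites of 59 genes, all lncRNA, at a median of 189 bp from the mean summit, 37 of them within 250 bp. The D130051D11Rik start, 56 bp from the summit, was in the strongest of these regions. Among the printed starts, Dubr had a fold enrichment of 10.4 and 9.03 in WT against 10.7 and 10.6 in Sphk2 KO with the summit 44 bp away. Mirt1 had 8.71, 7.33, 7.02 and 7.84, Ptgs2os2 7.78, 7.35, 6.07 and 7.72, and Morrbid 7.32, 7.34, 8.16 and 7.14. Lexis1 had 6.31, 4.53, 5.98 and 8.67, with both WT percentiles below both of Sphk2 KO once ranked, and Dleu2 likewise.

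Motif letters in the start windows are given as shares. GAGGAAG (PU.1) was in 28.1% of the 64 windows, in 17.97% of 1052 non-coding start windows in other shared regions and in 13.4% of all 31396 autosomal windows. The C/EBP letters were in 14.1%, 5.51% and 5.48%, and AGTTTC in 26.6%, 12.3% and 15.9%. AP-1 was in 9.38%, 5.51% and 5.26%, and Runx in 9.38%, 4.47% and 5.32%. CTCF letters were in 9.38%, 15.4% and 10.7%. Among all 11311 autosomal windows of non-coding genes, in shared regions or not, the shares were 13.7% for PU.1, 4.98% for C/EBP, 17.4% for AGTTTC, 6.25% for AP-1, 6.30% for Runx and 6.39% for CTCF, so that for CTCF the order depends on the windows compared. The 64 windows are few and some genes give more than 1, so each count is small (18 windows for PU.1, 9 for C/EBP, 6 for AP-1), and letters in a window are not a bound site.

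Genotype was compared by rank within each library, because read counts over regions were not used here. In 173 far regions (19.0%) both Sphk2 KO percentiles exceeded both WT percentiles, beside 18.6% of all shared regions, and in 182 (20%) both WT percentiles exceeded both Sphk2 KO ones, beside 18.1%. The far regions thus ranked about as often one way as the other, at shares near those of all shared regions. Ranking by −log10 q gave 225 (24.7%) beside 22.1% and 213 (23.4%) beside 21.4%, and ranking by pileup 251 (27.6%) beside 24.1% and 228 (25.1%) beside 23.3%. The median Sphk2 KO minus WT difference in mean percentile was 0, and the middle 90% of regions spanned -18.1 to 16.8 points, against -16.2 to 15.2 over all shared regions. Replicates of a genotype differed by a median of 7.17 points among far regions and 6.63 among all. In bulk chromatin, fewer cells of a type and less open chromatin per cell cannot be told apart. The monocyte marker peaks given above were fewer in both Sphk2 KO libraries, which also had shorter peak lists. The T cell marker peaks differed mainly through WT replicate 2, with 8 genes against 4 in WT replicate 1 and 3 in each Sphk2 KO library. The part of these marker differences in the ranks was not tested.

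**Figure D3:**
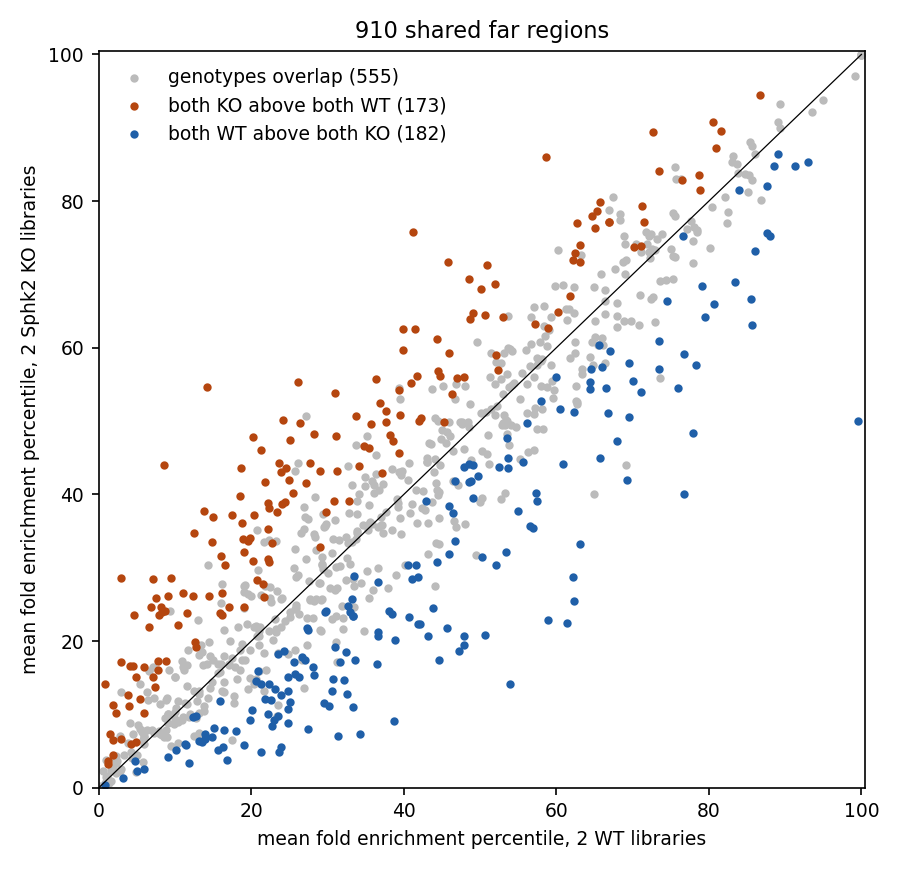
Mean fold enrichment percentile of the 910 shared far regions in the 2 WT (x axis) and 2 Sphk2 KO (y axis) libraries; colours mark regions where both libraries of a genotype ranked above both of the other. The 173 regions above and 182 below the diagonal are of like number, and 1 point at the right edge, Gvin1–Gm1966, lies far below it.

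Correlation between libraries was a little lower than across all shared regions, which include the 910. Spearman's rho of fold enrichment between pairs of libraries was 0.810 to 0.878 across the 910, against 0.889 to 0.931. It was highest between the 2 WT libraries. The pairs share libraries and the regions are not independent. Fold enrichment also spread less among the far regions (WT replicate 1 quartiles 5.15 and 8.44, against 5.78 and 10.7), and the part of this in rho was not tested. By role, and beside the 18.6% and 18.1% of all shared regions, 23 of the 96 regions beside myeloid transcription factors ranked higher in Sphk2 KO (24.0%) and 21 in WT (21.9%). Of the 105 beside signalling regulators, 13 (12.4%) and 21 (20%) did. The counts were 4 and 4 of 19 for cytokines and receptors, 6 and 4 of 25 for effector genes, and 2 and 3 of 11 for sphingolipid and lipid genes. Regions of a gap count separately here, those of Cebpb–Ptpn1 count under both transcription factors and signalling regulators, and no difference between roles was tested. Beside Id2 the counts were 6 and 5 of 15, and beside Jun, an AP-1 subunit gene, 1 and 4 of 6. Beside Dusp6 they were 0 and 3 of 7, and between Uaca and Tle3, a corepressor gene, 5 and 1 of 9. These gaps were picked from 340 after their counts were seen, so the counts do not show a direction for a gap. On chromosome 7, which holds Sphk2, 8 and 7 of 30 far regions ranked higher in Sphk2 KO and in WT (26.7% and 23.3%), beside 19.4% and 19.3% of all shared regions of that chromosome.

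Of regions that ranked higher in Sphk2 KO, Dusp10–Hlx at chr1:184659689-184660469, 67.102 kb from the homeobox gene Hlx, had the widest gap between the genotypes. Its fold enrichment was 6.56 and 7.61 in WT against 9.34 and 11.2 in Sphk2 KO, and the nearest percentiles of the genotypes were 26.2 points apart. A pair of regions between Cd93, the gene of a receptor of myeloid and endothelial cells, and Nxt1 came next. They had 5.75 and 5.90 against 7.81 and 8.37 at chr2:148567637-148568624, and 5.95 and 5.81 against 7.05 and 8.07 at chr2:148578933-148579310.

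Ptger2–Txndc16 at chr14:45079357-45080478, beside the prostaglandin E2 receptor gene Ptger2, had 4.44 and 3.93 in WT against 5.36 and 9.09 in Sphk2 KO, with Sphk2 KO replicate 2 far above replicate 1. Eed–Picalm at chr7:90039212-90039984 had 5.63 and 5.89 against 6.56 and 8.18, and Ubl3–Katnal1 at chr5:148708033-148708591 had 7.39 and 6.60 against 7.95 and 9.70. In these 6 regions no WT library reached a Sphk2 KO one, by the way they were chosen.

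The opposite order was led by Gvin1–Gm1966 at chr7:106528502-106529910, 66.311 kb from Gm1966. It lay 313.898 kb from Gvin1, the gene of a very large interferon-inducible GTPase. It had 16.1 and 16.5 in WT against 6.44 and 8.86 in Sphk2 KO, and percentiles of 99.3 and 99.9 against 44.5 and 55.6, the widest gap of all 910 at 43.7 points. Its pileup was 104 and 118 against 33 and 57. Akr1e1–Klf6 at chr13:4771333-4771933 had 9.05 and 7.52 against 4.06 and 5.26.

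Rnf19a–Ankrd46 at chr15:36367103-36368306 had 9.71 and 9.74 in WT against 6.50 and 7.30 in Sphk2 KO. Tmpo–Nedd1 at chr10:91270294-91271492 had 8.56 and 9.61 against 5.71 and 6.64. Prkcq–Pfkfb3 at chr2:11375069-11375541, between the kinase gene of T cell receptor signalling and a gene of glycolysis, had 10.4 and 10.8 against 5.27 and 8.44. These 11 regions, 6 in one direction and 5 in the other, kept their order when ranked by −log10 q and by pileup. They were chosen for this difference, so no test of it was made.

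**Figure D4:**
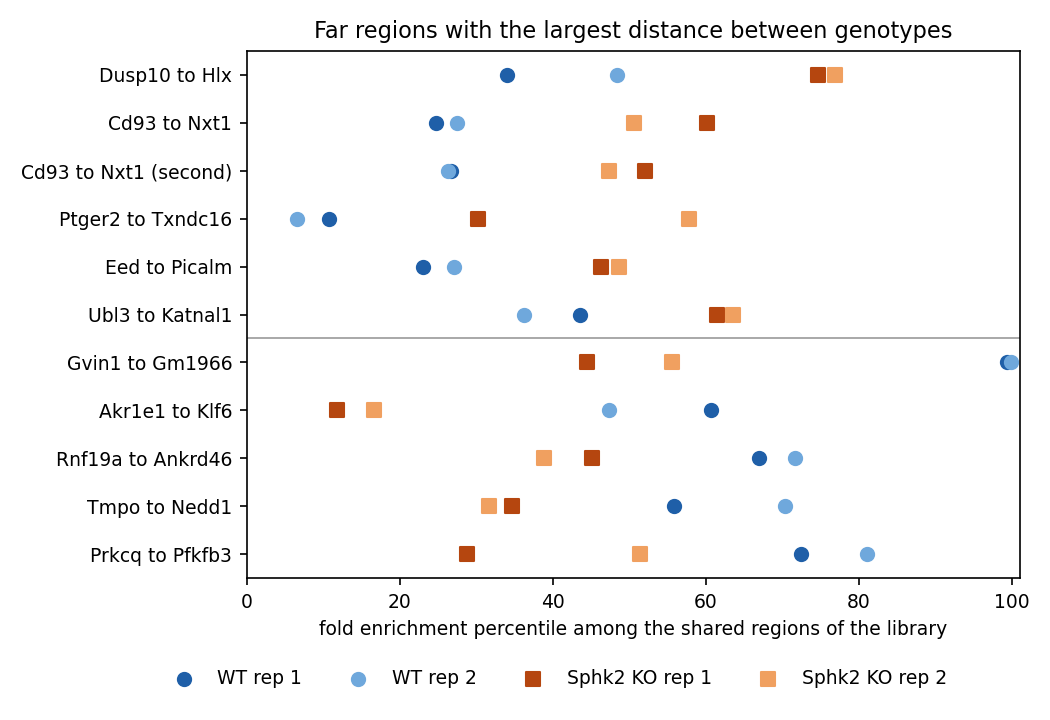
Fold enrichment percentile, in each library, of far regions with the widest gaps between genotypes (6 with Sphk2 KO higher above the line, 5 with WT higher below it), named by their flanking protein-coding genes. Circles are WT and squares Sphk2 KO; Gvin1–Gm1966 stands at 99.3 and 99.9 in WT and at 44.5 and 55.6 in Sphk2 KO.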

How the data were processed

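ATAC-seq peak lists of 4 libraries (2 WT, 2 Sphk2 KO) were used. The submitters' processing notes name Cutadapt, BWA, MACS2 and the build mm10. Per the file headers, peaks were called in each library separately by MACS 2.1.1.20160309 from read pairs with no control, a q-value limit of 0.05 and a local background of 10000 bp and 1 fragment kept per position. A shift of ends for Tn5 is not given in sources used here. The deposited lists give each peak's length (a score in bp), pileup (a coverage signal that counts fragments, unscaled), −log10 p-value and q-value, and fold enrichment (a ratio of pileup over local background). These are the authors' values for single peaks. Regions were compared between genotypes by their rank within a library. Fold enrichments, pileups and sums over marker genes are also printed side by side, without scaling between libraries.

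Peaks were merged in Python 3.11.15 (pandas 2.3.3, NumPy 2.4.6, SciPy 1.17.1), which was tested on simulated data. The peak with the highest fold enrichment stood for a region in a library. Depth was 25877428 to 34443062 retained fragments, and a shallow library yields fewer calls. Gene positions were those of RefSeq on GRCm38.p6, the assembly of mm10, with 20665 autosomal protein-coding genes; it gives no strand or exons, so distance was taken to the nearer gene end. Intergenic position is the only annotation of the regions given.

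Regions were named by rule: the 6 with the highest lowest percentile, the 6 farthest, the 6 widest, the 6 with the largest gap between genotypes in each direction, up to 12 with a listed flanking gene, the 6 highest inside a non-coding entry and the 3 nearest the 50 kb limit on each side; the fullest gaps, the highest pileups and the leading regions of gaps were named after their values were seen. Gaps given with their own genotype counts were also named after those counts were seen. Some regions that the rule takes are left out of the text. The regions and lists were chosen with earlier results of these data known. Shares of far peaks were compared by exact permutation over libraries, two-sided. Alternatives were a −log10 q of at least 5, 250 bp windows around summits, equal list lengths, limits of 25 and 100 kb, any gene entry, ranking by −log10 q or pileup, each library left out and pairing by replicate number. Motifs in the regions themselves needed a genome sequence and were not run; read counts and sex chromosomes were not used here.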

Additional observations from a re-analysis of the deposited data

How the results depend on the processing

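With a limit of 25 kb, 1574 shared regions were far from genes, at a median percentile of 37.8, with 290 higher in both Sphk2 KO libraries and 309 in both WT libraries; with 100 kb these were 464, 33.6, 83 and 91, and with distance to any gene entry 107, 36.4, 20 and 21. In that order the shares higher in Sphk2 KO were 18.4%, 17.9% and 18.7%, beside 18.6% of all shared regions. The shares higher in WT were 19.6% each, beside 18.1%. The other settings gave 763 to 1199 regions. The median percentile, 35.8 over the 4 libraries, was 35.5 for peaks whose −log10 q was 5 or more, 35.3 with 250 bp windows, 34.9 ranked by −log10 q and 35.2 by pileup, shifts beyond the spread between libraries of 0.25. The lower share of far peaks in Sphk2 KO reversed to +2.46 percentage points with lists of equal length. It shrank to -0.721 for peaks whose −log10 q was 5 or more and to -2.33 with distance to any gene entry, and was -5.13 and -3.97 with 25 and 100 kb. Leaving out each library in turn gave 948 to 1199 regions, median widths of 796 to 851 bp and median percentiles of 35.2 to 35.9. The share difference was then -6.00 to -3.31 points and the non-coding share 32.6% to 34.0%. In these runs 320 to 415 regions ranked higher in Sphk2 KO and 318 to 445 in WT. Both counts were highest without Sphk2 KO replicate 1, the run with the most regions. As shares of the far regions they were 33.5% to 37.9%, highest without Sphk2 KO replicate 2, and 33.3% to 37.1%. In every run 3 libraries separate more easily than 4. Over all shared regions the shares rose likewise, to 32.5% to 39.2% and 31.5% to 35.2%. The labels do not say whether same-numbered libraries of the genotypes were paired. Deviations of same-numbered libraries correlated at 0.069 over the far regions, which with 2 libraries per genotype cannot settle it. With the replicate block 257 and 254 regions ranked higher in Sphk2 KO and WT (28.2% and 27.9%, against 28.3% and 26.5% of all shared regions). The share difference was then -4.65 (p = 0.5, the smallest an exact paired permutation test allows here). Chosen after seeing the data, leaving out the 4 regions above percentile 99 left 906 regions. Leaving out Igh left 170 regions higher in Sphk2 KO and 179 in WT. With Igh these were 173 and 182, or 19.0% and 20%, beside 18.6% and 18.1% of all shared regions. With 2 libraries per genotype the exact permutation test used could not reach 0.05, and depth differed between the genotypes.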

Other observations

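Chromosomes differed in how many of their shared regions lay far from genes. Chromosome 10 held 121, or 12.8% of its 946 shared regions, and included the gaps beside Btg1, Cited2, Cd24a and Dusp6. Chromosomes 12 and 13 followed with 70 (11.0%) and 81 (10.7%). Chromosome 11 held 18 (1.31% of 1379) and chromosome 7 held 30 (2.62% of 1145).

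Other gaps with several far regions were beside Rybp, a Polycomb subunit gene, with 10, Rbpj, the nuclear effector of Notch signalling, with 8, Cd83 and Jarid2 with 8, Marcks with 7 and Ly86 and Rreb1 with 7. Beside Jun, the strongest of the 6 regions lay at chr4:95105401-95106949 inside the lncRNA Junos, with a fold enrichment of 10.1 and 10.3 in WT against 10.0 and 12.6 in Sphk2 KO.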
